A study of Mus musculus with 6 samples.

Results

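The mRNA levels of 36 genes of cholesterol and fatty acid synthesis were described in cultured mouse bone marrow mesenchymal stem cells with and without a conditional knockout of Mapk7. The members were the rows of the expression tables whose gene symbol matched a list of 18 sterol genes, 5 genes of the SREBP control system and 13 fatty acid genes. All 36 were among the 15063 listed genes, and 35 passed the filter on low values (3 or more libraries with an RPKM of 1 or above), which 11085 genes passed. The member below the filter was Acacb. RNA-seq was done on 6 libraries of marrow stromal cells, which can form bone, cartilage and fat: 3 from 3-week-old wild-type (WT) mice and 3 from conditional knockout (CKO) mice of the same age. Mapk7 encodes the MAP kinase ERK5. The labels give neither the promoter that drives the deletion nor the cells it acts in. All cells were expanded on plastic in α-MEM with serum and were not differentiated, and 5 libraries were made at passage 5 and WT library 2 at passage 7. The descriptions number the animals, but these numbers are partly at odds with other sources (below), and culture dates and litters are not stated, so p-values measure only the spread between these libraries, which may be technical.

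Cholesterol is built from acetyl-CoA through mevalonate, the isoprenoid diphosphates, squalene and lanosterol, and fatty acids are built from the same acetyl-CoA by carboxylation, chain synthesis, elongation and desaturation. Transcription of both branches is driven by SREBP factors, which are held in the endoplasmic reticulum with the escort protein SCAP and the anchors INSIG1 and INSIG2 while sterols are plentiful. When sterols run low, SCAP carries the SREBPs to the Golgi, where proteases release the active factor. SREBP2, from Srebf2, acts mostly on sterol genes, and SREBP1, from Srebf1, mostly on fatty acid genes. SREBPs bind sterol regulatory elements together with NF-Y, which binds the CCAAT box. Cells fed with serum lipoproteins take up cholesterol and need less of their own synthesis.

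Promoter sequence was available for 29 of the 36 members, in 39 windows of 300 bases (250 before to 50 after a transcription start) from RefSeq on mouse build GRCm38.p6. Fads1, Fdft1, Fdps, Scd1, Scd2, Sqle and Stard4 were not matched. The windows were searched on both strands for the sterol regulatory element TCACNCCAC, the CCAAT box (CCAAT, read as ATTGG on the other strand) and the E-box CACGTG. No match of these 3 motifs overlapped another kind in the stretches printed here. The 200 bases before the start site are shown for Hmgcs1 and Idi1, whose CKO values lay below all WT values, for Cyp51, a sterol gene whose groups overlapped, and for Acss2, the fatty acid gene with the largest difference. Capitals mark motif matches, and each sequence is written 5′ to 3′ on the strand of the gene.
Hmgcs1 (chr13:119690151-119690350, plus strand): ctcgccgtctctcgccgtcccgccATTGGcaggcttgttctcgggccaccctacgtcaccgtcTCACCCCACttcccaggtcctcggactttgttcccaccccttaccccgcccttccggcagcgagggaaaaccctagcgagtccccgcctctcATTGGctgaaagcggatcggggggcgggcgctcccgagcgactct
Idi1 (chr13:8885406-8885605, plus strand): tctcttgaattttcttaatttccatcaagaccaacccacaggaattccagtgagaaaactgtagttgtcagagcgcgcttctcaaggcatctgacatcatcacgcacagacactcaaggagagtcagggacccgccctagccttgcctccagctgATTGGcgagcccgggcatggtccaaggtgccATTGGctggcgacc
Cyp51 (chr5:4104698-4104897, minus strand): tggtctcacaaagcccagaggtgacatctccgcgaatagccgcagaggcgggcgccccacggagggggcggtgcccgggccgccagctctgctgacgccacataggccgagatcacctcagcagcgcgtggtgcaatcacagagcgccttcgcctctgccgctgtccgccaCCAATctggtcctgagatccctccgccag
Acss2 (chr2:155517843-155518042, plus strand): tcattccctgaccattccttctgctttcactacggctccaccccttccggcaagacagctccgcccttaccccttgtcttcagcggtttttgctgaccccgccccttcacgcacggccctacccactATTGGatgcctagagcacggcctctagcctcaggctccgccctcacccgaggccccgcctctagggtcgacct
Hmgcs1 held the only match to the sterol regulatory element among the 39 windows, as TCACCCCAC starting 137 bases before the start site. It lay between CCAAT matches that start 176 and 45 bases before that site. Idi1 held CCAAT matches 45 and 14 bases, Cyp51 29 bases and Acss2 73 bases before the start. All 14 sterol genes with a window had a CCAAT match, in 14 of 17 windows (82.4%), against 37.4% of the 32851 windows in the table. Of the 12 fatty acid windows 7 (58.3%) had one, and of the 10 windows of SREBP control genes 5 (50%). The E-box was present in 7 of 39 member windows (17.9%) and 7.15% of all windows, and the sterol regulatory element in 1.24% of all windows. These matches describe letters only, in windows of genes of every kind.

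The libraries held 17351907 to 20689481 counted reads. Mapk7 itself averaged 7.65 ± 1.24 RPKM (SD, n = 3) in WT and 4.96 ± 0.969 RPKM in CKO, without overlap (log2 difference −0.54, limma adjusted p = 0.505). WT libraries 1 and 2 carry the same animal number in their descriptions, yet the Y-linked gene Ddx3y stood at 0.0357 RPKM in the library labelled WT 1 and at 19.1 RPKM in the library labelled WT 2, which goes against that shared number. Ddx3y was at 11.8 RPKM in WT library 3 and 6.455 to 16.0 RPKM in the CKO libraries. Like Uty, Kdm5d and Eif2s3y, it was near 0 in WT library 1 alone. Sex was therefore not balanced between the genotypes, also within passage 5, and its part in the differences was not tested. For WT library 3, the description and the file header give unlike animal numbers. WT library 2 stood apart from the rest on the first principal component of all tested genes (76.5, against −36.8 to 21.3 for the others, 51% of variance). Its 30 cell cycle genes averaged 1.30 on the log2(RPKM + 1) scale, against 3.55 to 4.72 in the other libraries, and each was lowest there. The 15 tested stromal markers averaged 7.34 to 7.80 (WT) and 6.08 to 6.85 (CKO), with 13 below 0 in log2 difference, against 46.3% of all tested genes. Thy1 and Nt5e went the other way, with means of 136 and 8.97 RPKM (WT) and 179 and 14.4 RPKM (CKO). None of the 22 macrophage markers was at 0 in all libraries. Their RPKM summed to 908 to 2540 in WT and 470 to 3856 in CKO, with the largest sums in the third library of each genotype. The summed RPKM of the 8 listed fat cell markers was 31.6 to 38.1 in WT and 34.7 to 63.8 in CKO, and those of the 8 osteoclast markers 71.5 to 103 and 47.9 to 95.4. Most of the osteoclast sum was Ctsk, at 61.5 to 94.1 RPKM (WT) and 41.9 to 57.2 RPKM (CKO). Acp5, Mmp9 and Atp6v0d2 were highest in CKO library 3 (10.4, 21.1 and 4.22 RPKM), and Nfatc1 was lowest there (1.64 RPKM). Endothelial markers summed to 2.36 to 5.74 RPKM in WT and 0.519 to 3.21 RPKM in CKO. Erg made up most of the WT sum, with means of 3.26 RPKM (WT) and 0.223 RPKM (CKO). The other endothelial markers were under 1 RPKM in every library. Of these, Pecam1, Cdh5, Kdr and Vwf had higher CKO means, and Tek, Tie1 and Emcn lower ones. The 2 listed lymphoid and erythroid markers summed to at most 0.412 RPKM. The part of cell makeup in the differences below was not tested. In bulk RNA, fewer cells of a type and less RNA per cell cannot be told apart.

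Sterol synthesis genes were mostly lower in the CKO libraries, by modest amounts, and none passed the test. Of the 18 sterol members 16 had a lower CKO mean on the log2(RPKM + 1) scale, and their median log2 difference was −0.47, where the median of all 11085 tested genes was 0.03 and 46.3% lay below 0. In 8 of the 18, every CKO value lay below every WT value: Hmgcs1, Idi1, Sqle, Lss, Nsdhl, Hsd17b7, Dhcr7 and Stard4. Such a gap occurred in 9.18% of all tested genes. No sterol member lay wholly above, as 7.51% of all genes did. None had an adjusted p under 0.05 (limma adjusted p = 0.397 to 0.998), as in 0.00902% of all genes. At an unadjusted p under 0.05, 3 were lower (Hmgcs1, Idi1 and Stard4), as in 6.39% of all genes, and none was higher, as in 3.36%. The count of 8 without overlap became 3 of 18 (Idi1, Lss and Stard4) after centring each library on its median, where 7.17% of all genes lay wholly below, and 5 after quantile normalization, where 7.62% did. Over all genes, 1018 lay wholly below and 833 wholly above as deposited, 795 and 1177 after centring, and 845 and 1141 after quantile normalization. Without WT library 2, which leaves passage 5 alone, the median was −0.26 with 16 of 18 still below 0, and the share of all genes below 0 was 53.1%.

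**Figure D1:**
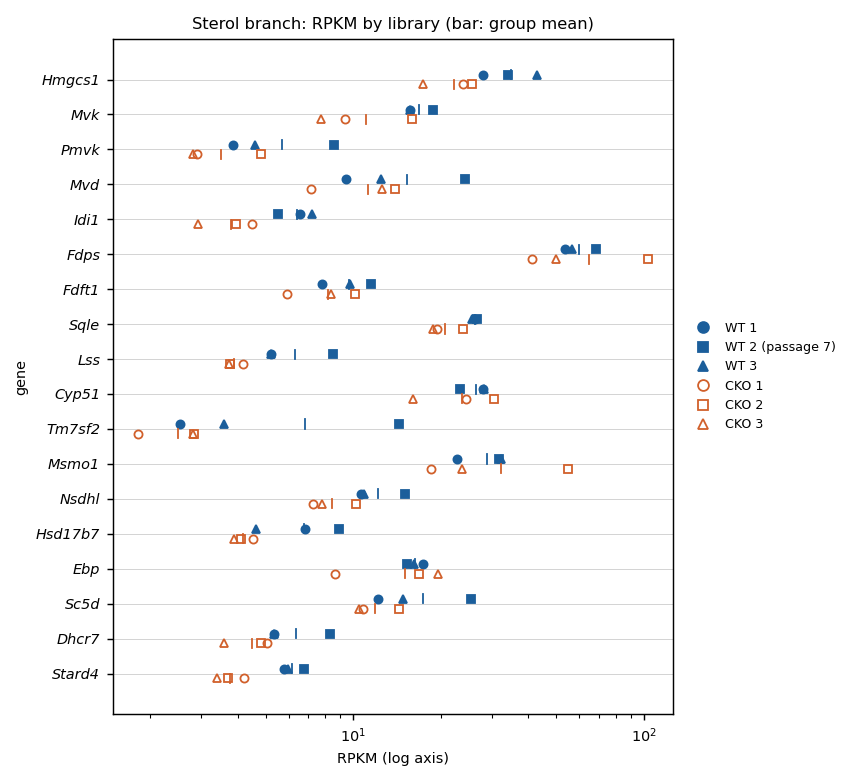
RPKM on a log axis for the 18 sterol members in each of the 6 libraries (filled blue, WT; open orange, CKO; circle, square and triangle for libraries 1, 2 and 3; vertical bars, group means). The CKO symbols lie left of all WT symbols for 8 genes, while CKO library 2 lies right of all others for Fdps, Cyp51 and Msmo1.

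The mevalonate steps turn acetyl-CoA units into the isoprenoid diphosphates. Hmgcs1, which encodes the cytosolic HMG-CoA synthase, stood at 28.1, 34.0 and 43.0 RPKM in WT libraries 1 to 3 and at 23.8, 25.6 and 17.4 RPKM in CKO libraries 1 to 3. The highest CKO value was thus below the lowest WT value by a small margin. Its mean was 35.0 ± 7.53 RPKM (WT) and 22.3 ± 4.29 RPKM (CKO) (SD, n = 3), a log2 difference of −0.63 (SE 0.25, limma adjusted p = 0.486). Idi1, the isomerase that balances the isoprenoid diphosphates, was at 6.53, 5.53 and 7.22 RPKM (WT) and 4.49, 3.95 and 2.93 RPKM (CKO). Its CKO mean was 0.590 of the WT mean, the lowest ratio of the 6 mevalonate genes (log2 difference −0.64, SE 0.22, limma adjusted p = 0.419). Unlike most of the branch, Idi1 was lowest among the WT libraries in WT library 2, and its difference was −0.73 within passage 5. The genes of the steps before Idi1, Mvk, Pmvk and Mvd, overlapped between genotypes, Mvk and Pmvk through CKO library 2 alone. Mvk, the mevalonate kinase gene, was at 15.7, 18.9 and 15.7 RPKM (WT) and 9.36, 15.9 and 7.77 RPKM (CKO), and Pmvk, which adds the next phosphate, at 3.87, 8.55 and 4.58 and 2.89, 4.83 and 2.80 RPKM. Mvd, the decarboxylase gene, was at 9.43, 24.2 and 12.5 RPKM (WT) and 7.17, 13.9 and 12.5 RPKM (CKO). Both Pmvk and Mvd were high in WT library 2, at 2.02 and 2.20 times the mean of the other WT libraries, and the Mvd difference was −0.01 within passage 5. Fdps, which joins the units into farnesyl diphosphate, did not share the pattern: it was at 53.7, 68.5 and 56.6 RPKM (WT) and 41.1, 103 and 49.7 RPKM (CKO), with CKO library 2 the highest of all 6 and the other CKO libraries the lowest.

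Squalene synthesis and cyclization commit the pathway to sterols. Sqle, which encodes squalene epoxidase, a rate-controlling step, was nearly constant in WT at 26.3, 26.7 and 25.5 RPKM and lower in CKO at 19.5, 23.8 and 18.8 RPKM. Behind these values were 919 to 1519 recovered reads per library. The difference was small, at −0.33 (SE 0.19, limma adjusted p = 0.607), a CKO mean 0.792 of that in WT. Lss, the lanosterol synthase gene, was at 5.20, 8.52 and 5.22 RPKM (WT) and 4.19, 3.76 and 3.73 RPKM (CKO). Its CKO libraries were close together, and WT library 2 set much of the WT spread (log2 difference −0.55, SE 0.24, limma adjusted p = 0.527, and −0.35 within passage 5). Fdft1, the squalene synthase gene, overlapped, at 7.82, 11.5 and 9.74 RPKM (WT) and 5.94, 10.2 and 8.41 RPKM (CKO).

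Of the 8 enzymes from lanosterol to cholesterol, 3 did not overlap, where 9.18% of all tested genes lay wholly below WT. None of these 3 kept the gap after median centring or after quantile normalization. Nsdhl, a sterol dehydrogenase of the demethylation steps, was at 10.6, 15.01 and 10.9 RPKM (WT) and 7.26, 10.3 and 7.82 RPKM (CKO), and the gap between CKO library 2 and WT library 1 was narrow. Hsd17b7, the reductase of the same steps, was at 6.83, 8.93 and 4.62 RPKM (WT) and 4.53, 4.11 and 3.87 RPKM (CKO), and WT library 3 lay just above CKO library 1. Dhcr7, which makes cholesterol from its last precursor, was at 5.34, 8.35 and 5.34 and 5.04, 4.80 and 3.59 RPKM. The log2 differences were −0.48 for Nsdhl, −0.56 for Hsd17b7 and −0.41 for Dhcr7 (SE 0.23 to 0.26, limma adjusted p = 0.548 to 0.618), and −0.33, −0.36 and −0.22 within passage 5. The remaining 5 overlapped. Cyp51, the lanosterol demethylase gene, was at 27.9, 23.3 and 28.2 RPKM (WT) and 24.4, 30.5 and 16.1 RPKM (CKO), with the lowest and the highest value both in CKO. Its difference of −0.19 turned to 0.05 without CKO library 3. Ebp, a sterol isomerase gene, was low only in CKO library 1, at 8.66 RPKM against 15.3 to 19.6 RPKM elsewhere. Sc5d, a sterol desaturase gene, was at 12.1, 25.3 and 14.8 RPKM (WT) and 10.8, 14.4 and 10.4 RPKM (CKO). Tm7sf2, a sterol reductase gene, reached 14.4 RPKM in WT library 2 and 1.82 to 3.58 RPKM in all others, so its log2 difference of −0.86 shrank to −0.22 within passage 5. Stard4, which encodes a cytosolic sterol carrier, was at 5.77, 6.78 and 5.95 RPKM (WT) and 4.22, 3.71 and 3.39 RPKM (CKO). It had the lowest adjusted p of the tested members, without passing the test (−0.59 in log2, SE 0.20, limma adjusted p = 0.397, and −0.53 within passage 5).

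CKO library 2 differed from the other CKO libraries along the sterol branch. It was the highest CKO library for 12 of the 18 sterol genes, against 3920 of all 11085 tested genes, and every sterol gene had its lowest value in CKO library 1 (7 genes) or CKO library 3 (11 genes). Those libraries held the lowest value for 11.4% and 15.4% of all genes, and CKO library 2, lowest for none of the 18, for 26.6%. Msmo1, the methylsterol oxidase gene, was at 22.8, 31.8 and 32.3 RPKM (WT) and 18.5, 55.0 and 23.6 RPKM (CKO), so that CKO library 2 was 2.61 times the mean of the other CKO libraries. The same ratio was 2.27 for Fdps, 1.88 for the SREBP anchor gene Insig1, 1.86 for Mvk and 1.505 for Cyp51. It was 0.950 to 1.11 for Lss, Stard4, Hsd17b7, Idi1 and Dhcr7, which were therefore low in CKO library 2 as well. Measured against the mean of WT libraries 1 and 3 on the log2(RPKM + 1) scale, the median of the 18 genes was −0.455 in CKO library 1, −0.03 in CKO library 2, −0.43 in CKO library 3 and 0.33 in WT library 2. The macrophage markers were lowest in CKO library 2 (mean 2.87, against 3.85 and 5.31 in the other CKO libraries), and their part in this contrast was not tested.

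**Figure D2:**
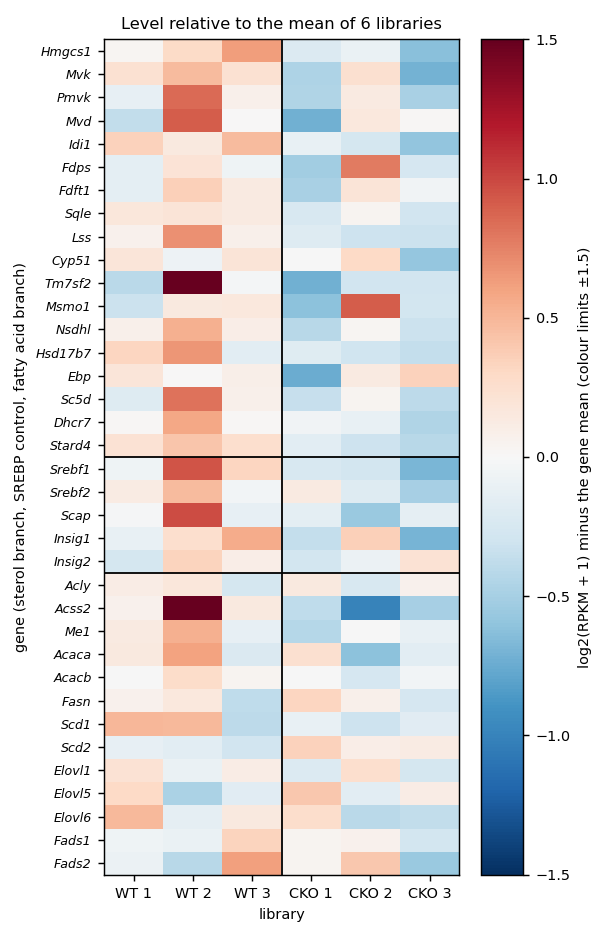
Level of each of the 36 members in each library, as log2(RPKM + 1) minus the mean of that gene over the 6 libraries (red higher, blue lower; horizontal lines separate the sterol branch, SREBP control and the fatty acid branch). WT library 2 is the reddest column of the sterol branch, and CKO library 2 is red for Fdps and Msmo1 where CKO libraries 1 and 3 are blue.

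The 5 genes of SREBP control all had a lower CKO mean on the log2 scale, and 2 did not overlap between genotypes, where 46.3% of all tested genes lay below 0 and 9.18% wholly below WT. Srebf1, the gene of the SREBP1 factors, was at 17.51, 36.3 and 23.4 RPKM (WT) and 15.4, 15.02 and 11.1 RPKM (CKO). Every CKO library lay below WT library 1, the lowest WT library, and WT library 2 was far above the rest (log2 difference −0.80, SE 0.30, limma adjusted p = 0.441, and −0.53 within passage 5). Scap, the escort of the SREBPs, was at 14.3, 29.5 and 13.1 RPKM (WT) and 12.9, 9.54 and 13.1 RPKM (CKO). WT library 3 and CKO library 3 lay almost level, and the difference of −0.56 (SE 0.33, limma adjusted p = 0.607) became −0.21 within passage 5. Srebf2, the gene of the sterol-directed factor, overlapped, at 25.1, 32.3 and 22.3 RPKM (WT) and 25.4, 20.1 and 16.1 RPKM (CKO), with a log2 difference of −0.36, SE 0.25, limma adjusted p = 0.654. Insig1, itself a known SREBP target, was at 22.4, 29.1 and 36.2 RPKM (WT) and 18.8, 31.4 and 14.7 RPKM (CKO), and within each genotype its libraries stood in the same order as those of Hmgcs1. Insig2 was at 5.41, 8.68 and 7.24 RPKM (WT) and 5.35, 6.23 and 7.93 RPKM (CKO). The median log2 difference of the 5 genes was −0.46, and it came to −0.22 within passage 5 and to −0.24 when CKO library 3 was left out. Both non-overlapping genes remained so after median centring and quantile normalization, where 7.17% and 7.62% of all tested genes lay wholly below WT.

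Over the 6 libraries the fatty acid branch had a median difference nearer 0 than that of the sterol branch. Within passage 5 the medians were −0.19 (fatty acid) and −0.26 (sterol). Of the 12 tested fatty acid members 9 lay below and 3 above 0, against 46.3% of all genes below 0. The median log2 difference was −0.13, and none passed (limma adjusted p = 0.424 to 0.990). At an unadjusted p under 0.05 only Acss2 was lower, as 6.39% of all genes were, and none was higher, as 3.36% were. Acss2 was the only one wholly below WT and Scd2 the only one wholly above, against 9.18% and 7.51% of all tested genes. Among the genes that supply precursors and NADPH, Acss2, the synthetase that makes acetyl-CoA from acetate, was at 4.48, 15.6 and 4.78 RPKM (WT) and 3.00, 1.61 and 2.68 RPKM (CKO). WT library 2 was 3.37 times the mean of the other WT libraries, but these too lay above all CKO libraries (log2 difference −1.26, SE 0.45, limma adjusted p = 0.424, and −0.74 with adjusted p = 0.817 within passage 5). Acly, which makes acetyl-CoA from citrate, did not separate, at 28.1, 29.4 and 21.5 RPKM (WT) and 28.9, 21.9 and 27.3 RPKM (CKO). Its difference was −0.01 with a 95% interval of −0.53 to 0.51. Me1, the malic enzyme gene, was at 35.0, 46.7 and 29.1 RPKM (WT) and 23.5, 31.6 and 29.3 RPKM (CKO), with the highest value in WT library 2.

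Acaca and Fasn encode the carboxylase that makes malonyl-CoA and the synthase that builds palmitate. Acaca was at 9.05, 12.8 and 6.84 RPKM (WT) and 9.72, 4.93 and 7.17 RPKM (CKO), and Fasn at 22.1, 23.4 and 15.9 RPKM (WT) and 26.4, 22.3 and 17.53 RPKM (CKO). The values of both genes interleaved, with a Fasn difference of 0.10 (SE 0.25, limma adjusted p = 0.904, 95% interval −0.47 to 0.68). That difference was −0.03 without CKO library 1 and −0.06 without WT library 3. Acacb, the mitochondrial-surface carboxylase, was under 0.6 RPKM in every library, at 0.280, 0.557 and 0.329 RPKM (WT) and 0.284, 0.0819 and 0.250 RPKM (CKO) from 15 to 109 reads, and was not tested.

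Scd2, a stearoyl-CoA desaturase gene, was the most abundant member per length. It was at 143, 141 and 128 RPKM (WT) and 199, 168 and 171 RPKM (CKO), with the lowest CKO library above the highest WT library (log2 difference 0.38, SE 0.24, limma adjusted p = 0.631, and 0.39 within passage 5). The groups overlapped after quantile normalization. Scd1, its close paralog, was at 38.2, 37.8 and 20.04 RPKM (WT) and 24.6, 21.4 and 23.7 RPKM (CKO): WT libraries 1 and 2 were high, and WT library 3 lay below all CKO libraries. Reads shared by these similar genes could have been split between them. The elongase genes went different ways within the same small range. Elovl5, which elongates polyunsaturated acids, was at 30.8, 17.6 and 22.004 RPKM (WT) and 33.3, 22.2 and 27.1 RPKM (CKO), Elovl6, which elongates palmitate, at 8.99, 5.52 and 6.91 and 7.59, 4.42 and 4.55 RPKM, and Elovl1, for very long chains, at 22.8, 18.0 and 21.0 and 16.7, 23.3 and 15.9 RPKM. The polyunsaturated desaturase genes were high in WT library 3. Fads1 was at 47.2, 45.9 and 62.5 RPKM (WT) and 50.9, 51.8 and 40.7 RPKM (CKO), and Fads2 at 49.8, 39.4 and 81.7 and 54.6, 70.3 and 35.5 RPKM. The Fads2 difference of −0.08 (SE 0.36) was 0.19 without CKO library 3 and 0.21 without WT library 3.

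**Figure D3:**
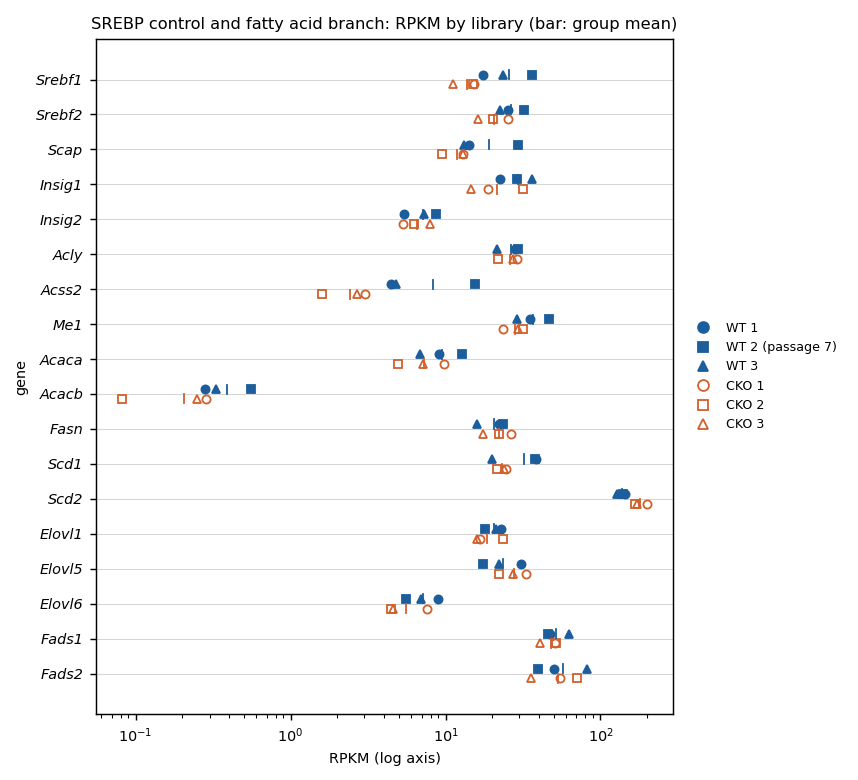
RPKM on a log axis for the 5 SREBP control genes and the 13 fatty acid members in each library (filled blue, WT; open orange, CKO; circle, square and triangle for libraries 1, 2 and 3; vertical bars, group means). Srebf1, Scap and Acss2 have all CKO symbols left of all WT symbols, Scd2 has them to the right, and the other genes overlap.

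Set side by side, the sterol branch lay lower in CKO than the fatty acid branch did, but much of that gap depended on WT library 2. On the log2(RPKM + 1) scale the mean sterol level was 3.61, 4.09 and 3.73 (WT) and 3.23, 3.67 and 3.26 (CKO), so CKO library 2 lay above WT library 1. For the tested fatty acid genes it was 4.75, 4.79 and 4.56 (WT) and 4.66, 4.45 and 4.41 (CKO). Here CKO library 1 lay above WT library 3. The sterol level minus the fatty acid level also overlapped, at −1.14, −0.69 and −0.83 (WT) and −1.43, −0.78 and −1.14 (CKO). The median log2 difference of the sterol branch minus that of the fatty acid branch was −0.34 over the 6 libraries and −0.07 without WT library 2. With any other single library left out it was −0.44 to −0.29. WT library 2 was the highest library for 12 of 18 sterol genes, 4 of 5 control genes and 4 of 12 fatty acid genes, against 21.3% of all tested genes. The fatty acid median was −0.05 without CKO library 3 and −0.20 with WT libraries 1 and 2 averaged as 1 sample. Passage and animal cannot be told apart for WT library 2. That library had both low cell cycle genes and high sterol genes, a pairing that rests on 1 library. The mean cell cycle level was 4.67, 1.30 and 3.93 (WT) and 4.72, 4.29 and 3.55 (CKO), beside the sterol levels above. The part of proliferation in the differences was not tested. Within passage 5, with 2 WT and 3 CKO libraries, no member passed (lowest limma adjusted p = 0.761). There 3 members were lower at an unadjusted p under 0.05 (Idi1, Acss2 and Stard4), as 4.04% of all genes were, and none was higher, as 1.84% were. The 11 members wholly below and the 1 wholly above WT over the 6 libraries necessarily stay so when a library is dropped, so their count there shows nothing further, and 11.8% and 8.55% of all genes lay wholly below and wholly above within passage 5.

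**Figure D4:**
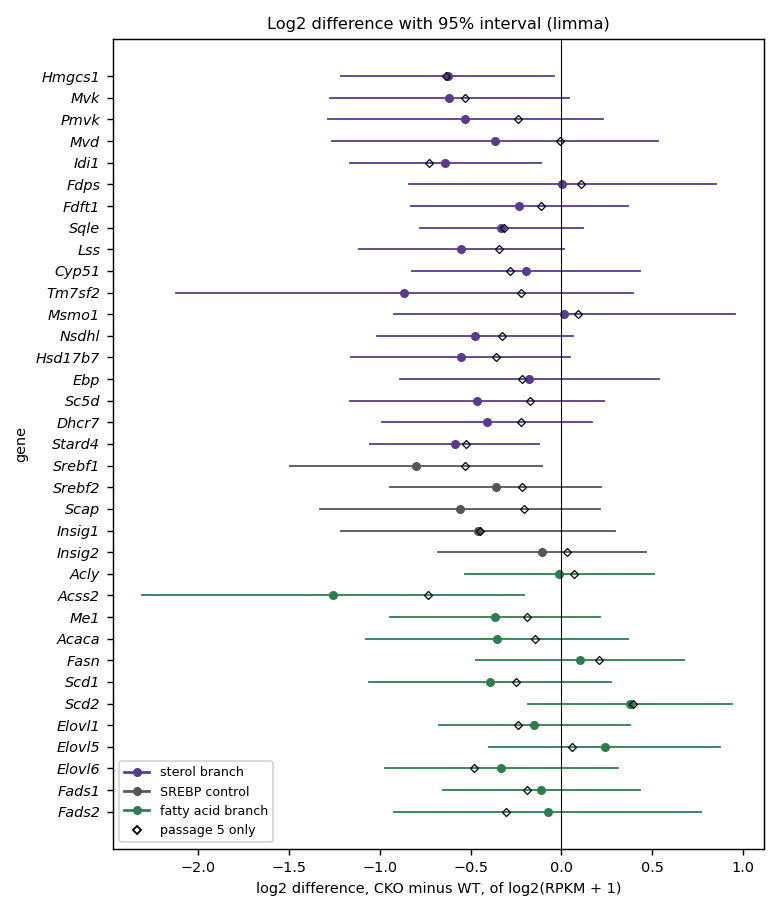
Log2 difference, CKO minus WT, of log2(RPKM + 1) for the 35 tested members, with the 95% interval of the limma fit (purple, sterol branch; grey, SREBP control; green, fatty acid branch) and the difference within passage 5 as open diamonds. For Tm7sf2, Acss2, Scap and Mvd the diamond lies nearer 0 than the main point, while for Hmgcs1, Idi1, Sqle and Stard4 it lies close to it.

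**Figure D5:**
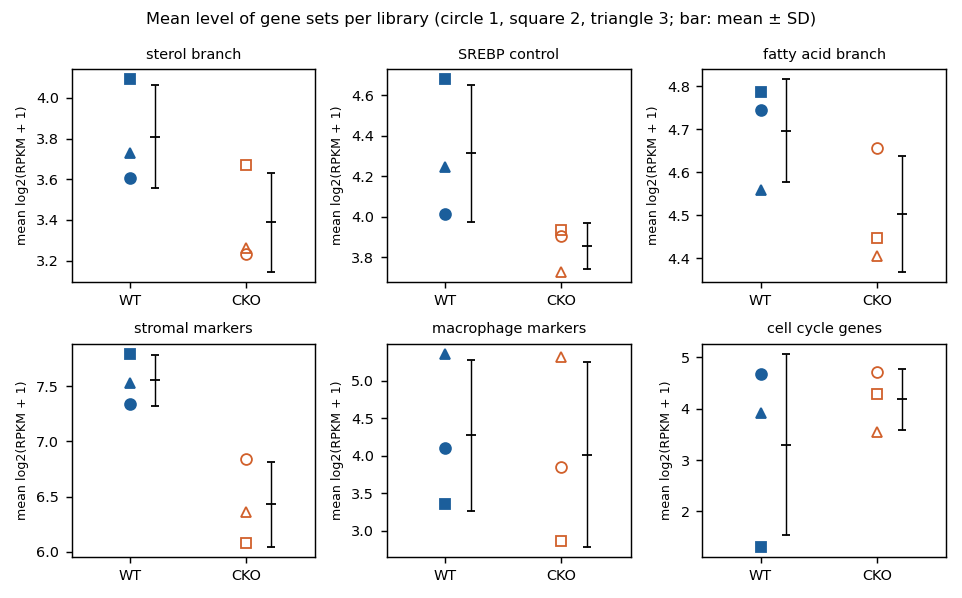
Mean log2(RPKM + 1) of the tested genes of 6 sets in each library (filled blue, WT; open orange, CKO; circle, square and triangle for libraries 1, 2 and 3; black bars, mean ± SD, n = 3). Sterol and fatty acid levels overlap between genotypes, SREBP control and stromal marker levels do not, and the cell cycle level of WT library 2 (1.30) lies far below the others.

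Other genes of sterol and lipid metabolism, from lists outside the 36 members, also had no member past the test. Further enzymes of sterol and isoprenoid synthesis (11 tested) had 6 above and 5 below 0. Their median of 0.15 became −0.12 within passage 5, where 6 lay below 0. Cyp39a1, an oxysterol hydroxylase gene, was at 4.49 ± 0.993 RPKM (WT) and 1.19 ± 0.628 RPKM (CKO), while Nus1, of dolichol synthesis, was at 23.1 ± 5.60 and 33.7 ± 7.47 RPKM and Tmem97 at 28.0 ± 11.8 and 43.1 ± 9.81 RPKM. The machinery that cleaves and degrades the SREBP system (12 tested) had 5 above and 7 below 0 and a median of −0.09. Mbtps1, the protease that makes the first cut in SREBPs, was at 54.5 ± 7.59 RPKM (WT) and 43.2 ± 7.25 RPKM (CKO), and the ubiquitin ligase gene Rnf139 at 10.1 ± 1.32 and 7.88 ± 0.605 RPKM. Sterol uptake, transport and storage genes (16 tested) were evenly divided, 8 above and 8 below 0. In this list 2 genes lay wholly above and 2 wholly below WT, against 7.51% and 9.18% of all tested genes. Soat1, which esterifies cholesterol for storage, was at 13.4 ± 4.05 RPKM (WT) and 29.6 ± 11.3 RPKM (CKO), wholly above WT. Mylip, a ubiquitin ligase gene that acts on lipoprotein receptors, was at 8.46 ± 5.12 and 2.56 ± 0.990 RPKM, and Osbpl1a at 5.24 ± 0.894 and 2.77 ± 0.156 RPKM. In WT library 2 Mylip reached 14.2 RPKM, against 4.51 and 6.64 RPKM in the other WT libraries. Of these genes Cyp39a1, Mylip and Osbpl1a were lower and Soat1 higher at an unadjusted p under 0.05, with limma adjusted p = 0.258 to 0.355. No others in these lists were, and 6.39% and 3.36% of all tested genes were lower and higher at that threshold. The named genes were picked for the lowest p of each list.

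Genes of the oxysterol-sensing LXR receptors and their targets (12 tested) had 7 below and 5 above 0, a median of −0.39 and 4 members wholly below WT, as 9.18% of all tested genes were. Nr1h3, which encodes LXRα, was at 4.52 ± 3.53 RPKM (WT) and 0.768 ± 0.290 RPKM (CKO), its partner Rxra at 22.6 ± 4.92 and 12.4 ± 3.14 RPKM, and Cyp27a1, a mitochondrial sterol hydroxylase gene, at 3.91 ± 3.00 and 0.709 ± 0.137 RPKM (limma adjusted p = 0.330 to 0.398). WT library 2 set much of these WT means for Nr1h3 (8.58 RPKM, against 2.14 and 2.85 in the other WT libraries) and Cyp27a1 (7.12, against 1.18 and 3.42). The median of the list was −0.29 within passage 5. Further genes of fatty acid synthesis and activation (25 tested) had 14 above and 11 below 0. Idh1, a cytosolic source of NADPH, was at 47.1 ± 8.74 RPKM (WT) and 28.4 ± 4.25 RPKM (CKO), Cyb5r3, which feeds electrons to desaturases, at 253 ± 126 and 101 ± 27.0 RPKM, and Hacd1, an elongation cycle dehydratase gene, at 33.9 ± 10.1 and 59.8 ± 19.6 RPKM. Cyb5r3 was at 387 RPKM in WT library 2, against 137 and 236 RPKM in the other WT libraries. Fatty acid oxidation genes (22 tested) had 16 below 0, a median of −0.26 and 7 members wholly below WT, beside the same 9.18% of all genes. Cpt1a, which admits fatty acids to mitochondria, was at 10.5 ± 2.26 RPKM (WT) and 6.42 ± 0.597 RPKM (CKO), and Hadh at 29.5 ± 3.16 and 20.5 ± 3.24 RPKM (limma adjusted p = 0.424 and 0.496).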

How the data were processed

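RNA-seq was available for 3 WT and 3 CKO libraries, grouped and numbered by their titles. The authors deposited 1 RPKM value (reads scaled to gene length and to the counted reads of the library) per gene and library. The file headers say only expression. RPKM was inferred because 15056 of 15063 genes (99.95%) became whole reads under an integer read total for each library and an integer length for each gene (tolerance 0.0001 read plus a relative 1e-08), and 0 of 200 genes with shuffled values did. Totals were 17351907 to 20689481 reads, so 3 reads in a 1 kb gene are 0.145 to 0.173 RPKM, for counting error only. Per the submitters' processing notes, the genome build named is mm9. For the aligner, counter, annotation, strand use and filters the sources used here give nothing, so overlapping or similar genes may share reads. RefSeq promoters are of GRCm38.p6 and were joined by symbol only. A table repeating the same values was not used.

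Values were tested as log2(RPKM + 1) with limma 3.58.1 in R 4.3.3 (genotype only, trend and robust moderation, two-sided p, Benjamini-Hochberg adjustment over 11085 genes, threshold 0.05). This scale understates changes of low genes. The planned design named this fit for normalized values. The fit and the read recovery were checked on simulated data. Medians over gene lists carry no test. The 36 members and the 13 further lists were chosen with earlier results of these data known. Per-library values are given for members without overlap, for the 4 with the lowest p per branch, for a set of canonical members and, added after their values were seen, for the rest. Further lists name up to 3 genes with the lowest p, and some results are not reported here. Alternatives were 2 scalings, 2 filters, plain limma moderation, a pseudocount of 0.1, voom on recovered reads, each library left out, WT libraries 1 and 2 averaged, and the replicate number as a block. A macrophage covariate was chosen after seeing the data. With it the median log2 differences were −0.52 (sterol), −0.50 (SREBP control) and −0.14 (fatty acid).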

Additional observations from a re-analysis of the deposited data

How the results depend on the processing

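No member passed the threshold in any of the 16 alternative settings, where the lowest limma adjusted p of a member was 0.227 to 0.790. Unadjusted p was under 0.05 for 1 to 7 members. The 1 of 35 came without CKO library 3, where 800 of 10893 tested genes were under 0.05. The 7 of 35 came without CKO library 2, where 980 of 11005 were. With 3 libraries a genotype, single-gene differences of the size seen here could not be separated from the spread between libraries. The median of the sterol branch stayed below 0 in each setting (−0.59 to −0.26), as did those of the SREBP control genes (−0.63 to −0.22) and the fatty acid branch (−0.20 to −0.05). Members without overlap were 12 as reported (11 below and 1 above), 7 after median centring (6 and 1) and 8 after quantile normalization (8 and 0), where 9.18%, 7.17% and 7.62% of all genes lay wholly below WT. Leaving out or merging libraries makes a gap easier for every gene, so those counts are not compared. Over all genes 1 passed as reported, 20 with WT libraries 1 and 2 merged, 4 with the filter at RPKM 5, 2 after median centring or quantile normalization, and 0 without a filter, with a pseudocount of 0.1, with voom on recovered reads, with the macrophage covariate or with the replicate block. In those 5 settings with 0, 1000 to 1399 genes had an unadjusted p under 0.05 in limma. Leaving out 1 library gave 0 to 24 genes, with 24 when WT library 1 was dropped and 17 when CKO library 1 was. Dropping WT library 2, CKO library 3 or WT library 3 gave 0, where 642 to 800 had an unadjusted p under 0.05. Of 334 values of named members under alternatives, 10 changed sign, those of Acly, Fasn, Cyp51 and Fads2. The Acly difference was 0.055 with WT libraries 1 and 2 merged and 0.014 after median centring. With 1 library left out the ranges were −0.15 to 0.10 for Acly, −0.06 to 0.25 for Fasn, −0.39 to 0.048 for Cyp51 and −0.30 to 0.21 for Fads2. The cause was not tested. Deviations of same-numbered libraries correlated at 0.198, 0.014 and −0.019, and those of the other pairs at −0.230 to 0.206. The labels name no batch shared by the genotypes. The block of replicate numbers, in which 0 genes and 0 members passed, therefore has no basis in the labels.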
